A study of Homo sapiens with 6 samples.

Results

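The genes described are FABP4 and 8 further genes of PPAR-dependent lipid handling (PPARG, PPARD, FABP3, FABP5, CD36, LPL, PLIN2 and CPT1A), 9 of the 17687 named genes of a microarray study of miR-503 inhibition in mesothelioma. They were picked by symbol, and the row with the highest mean would have stood for a symbol with several rows, but each of the 9 had 1 row. The arrays measured RNA of MSTO-211H (MSTO), an established human cell line of malignant mesothelioma, a tumour of the mesothelial lining of pleura and peritoneum. Of the cultures, 3 received an inhibitor of hsa-miR-503-5p (anti-miR-503) for 48 h and 3 were controls, each given as a biological replicate and each hybridized from 100 ng of RNA to 1 Clariom S array. The labels call the controls untreated and also name a DMSO vehicle, whereas the methods name a negative control inhibitor and also untreated cells, so the treatment of the control cultures stays unclear. The transfection reagent of the cell assays is itself a lipid formulation, and whether the control arrays came from cultures given it is not stated. For these lipid genes the inhibitor and the reagent therefore cannot be told apart. All values come from 1 cell line, and nothing says whether the replicate cultures were set up on separate days.

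PPARG and PPARD are nuclear receptors that bind fatty acids and their derivatives, pair with a retinoid X receptor and switch on genes for the uptake, transport, storage and oxidation of fatty acids. FABP3, FABP4 and FABP5 are small cytosolic carriers of fatty acids, and FABP4 and FABP5 can hand ligands to PPARG and PPARD in the nucleus. FABP4 is best known from adipocytes, macrophages and capillary endothelium, and it is a classical target of PPARG. The carriers act beside CD36, a fatty acid receptor at the cell surface, LPL, which releases fatty acids from circulating triglycerides, PLIN2, which coats lipid droplets, and CPT1A, which commits fatty acids to mitochondrial oxidation.

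The treatment is directed at the microRNA whose mature sequence is shown first, with 2 relatives that share most of its seed. Sequences are from RefSeq (GRCh38.p14), 5′ to 3′, with the seed (bases 2 to 8) in capitals.
hsa-miR-503-5p: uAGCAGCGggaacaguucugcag
hsa-miR-424-5p: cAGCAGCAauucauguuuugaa
hsa-miR-16-5p: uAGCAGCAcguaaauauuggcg
The mature miR-503-5p has 23 bases and lies at chrX:134546371-134546393 on the minus strand, beside miR-424-5p at chrX:134546680-134546701 on the same strand. Its seed, AGCAGCG, was held by 1 mature entry, while AGCAGCA, the seed of miR-424-5p and miR-16-5p, was held by 7 entries and differs from it at 1 base. The mature microRNAs were not analysed here, so the labels of the treated arrays could not be checked against the level of miR-503.

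The arrays gave 1 log2 signal per transcript, with array medians of 6.56 to 6.63. A signal was called above background where it exceeded the 95th percentile of that array's negative controls, which lay between 7.44 and 8.09, and 40.3% to 43.6% of the rows did so. Over all rows, anti-miR-503 replicate 1 correlated more closely with each control than with the other anti-miR-503 arrays. Its correlation was 0.9914 with control replicate 3, the highest of the 15 pairs of arrays. With control replicates 2 and 1 it was 0.9874 and 0.9836. It was 0.9804 with anti-miR-503 replicate 2 and 0.9775 with anti-miR-503 replicate 3. Anti-miR-503 replicates 2 and 3 correlated at 0.9891. Control replicates 1 and 2 correlated at 0.9879, 2 and 3 at 0.9823, and 1 and 3 at 0.9796. Control replicate 3 was thus also nearer to anti-miR-503 replicate 1 than to the other controls. The culture of anti-miR-503 replicate 1 could not be checked against its label here. A higher or lower value in anti-miR-503 is meant as the labels give it. Differences are therefore given with anti-miR-503 replicate 1 and without it. This array was picked from these same values, so p-values of fits without it are description only. With all arrays, 0 of 21448 rows passed an adjusted p under 0.05 by limma (0% of rows), and 1377 had an unadjusted p of 0.05 or less. The threshold used below joins a difference of 2-fold or more to an unadjusted p of 0.05 or less, which 0.872% of rows passed as higher and 0.914% as lower in anti-miR-503.

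The cell identity was checked with 4 marker lists, whose levels are mean log2 signals over the genes of a list. Of 12 mesothelial markers, 5 (MSLN, CALB2, KRT8, KRT18 and BNC1) were above background on all arrays and 6, WT1 and PDPN among them, on none. The mean level of this list was 8.39 to 8.65 on the anti-miR-503 arrays and 8.51 to 8.60 on the control arrays. Of 10 adipocyte markers only ADIPOR2, a broadly expressed adiponectin receptor, was above background, while ADIPOQ, LEP and PLIN1 were on no array. The adipocyte list averaged 4.49 to 4.91 on the anti-miR-503 arrays and 4.61 to 4.65 on the control arrays. None of the 10 macrophage markers exceeded background on any array (list mean 4.71 to 5.06 with anti-miR-503 and 4.62 to 4.89 in controls), and none of the 10 capillary endothelial markers did (4.70 to 4.87 with anti-miR-503 and 4.50 to 4.80 in controls). The defining markers of the other cell types that carry FABP4 were thus not measured above background on these arrays.

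Among the 9 genes the arrays separated a measured group from one that was not. PPARG, PPARD, FABP5 and CPT1A were above background on all 6 arrays, FABP4 on 2 anti-miR-503 arrays and on no control array, and FABP3, CD36, PLIN2 and LPL on none. The genes were chosen with this contrast already known, so their differences are a description with no test, and the count past the threshold says nothing beyond the choice. FABP4 alone of the 9 passed the 2-fold threshold, as higher, and 0 passed as lower. Of the differences, 6 were positive and 3 negative, and their median was 0.21 on the log2 scale, beside 0.01 over all rows tested. When anti-miR-503 replicate 1 was left out, the median of the 9 was 0.35 and 2 of them passed, FABP4 and PPARG, both higher. In that comparison 2.42% of all rows passed as higher and 3.81% as lower.

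**Figure D1:**
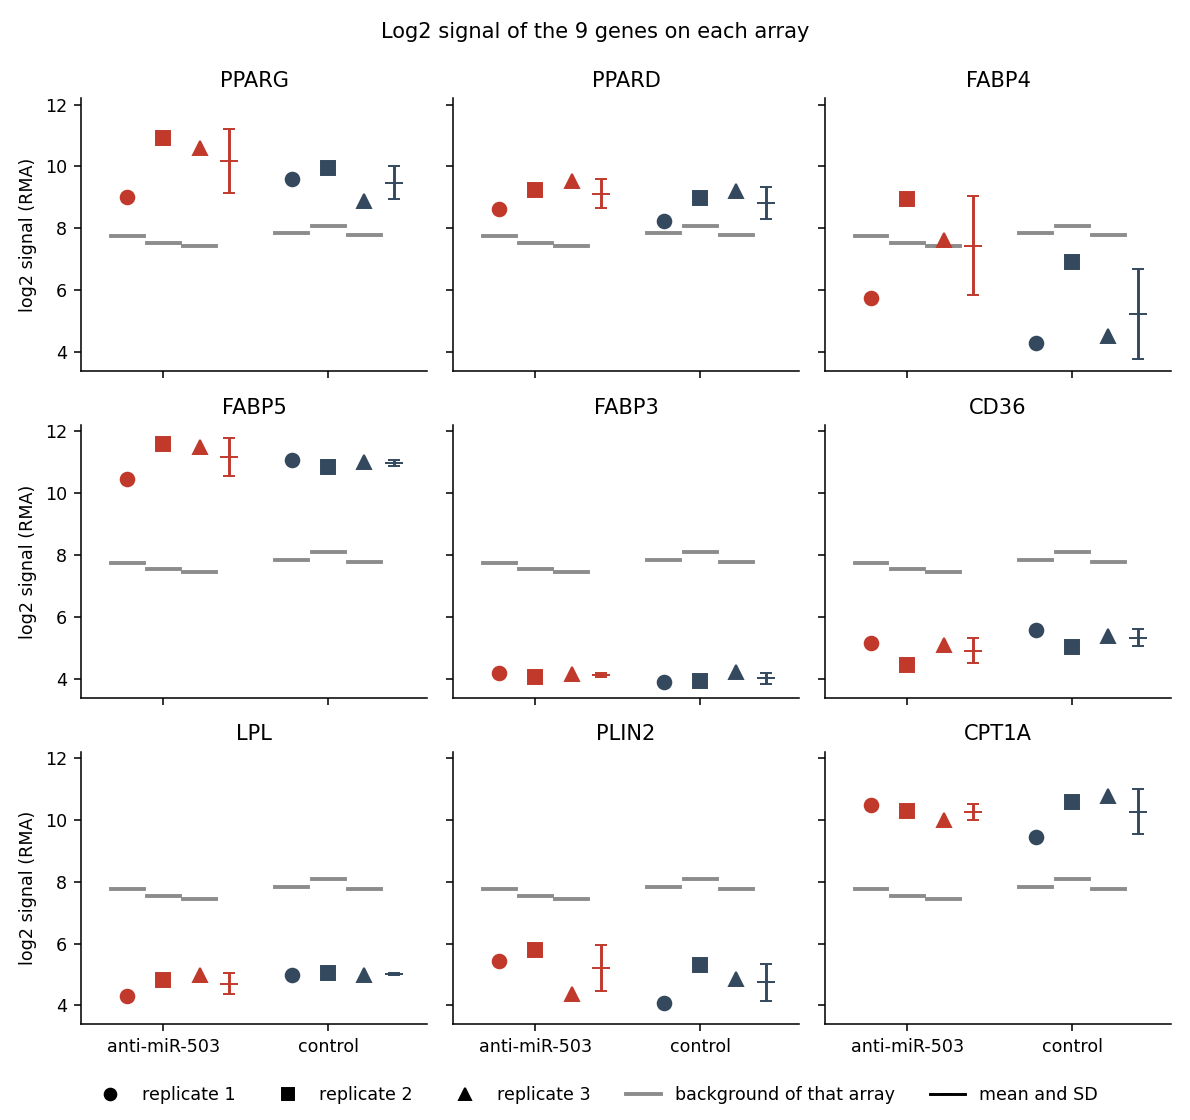
Log2 signal of each of the 9 genes on each array, with the 3 anti-miR-503 arrays left of the 3 control arrays, symbols for the replicate number, mean and SD beside them, and a grey line at the background of each array. FABP4 rises above the line only on anti-miR-503 replicates 2 and 3, and FABP3, CD36, LPL and PLIN2 stay below it on all 6 arrays.

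PPARG, the receptor that drives lipid storage in adipocytes, had log2 signals of 9.001, 10.93 and 10.60 on anti-miR-503 replicates 1, 2 and 3, against 9.58, 9.96 and 8.89 on control replicates 1, 2 and 3. Anti-miR-503 replicates 2 and 3 lay above every control, but replicate 1 lay below 2 of the controls, so the groups overlapped. PPARG averaged 10.18 ± 1.03 with anti-miR-503 and 9.48 ± 0.54 in controls (SD, n = 3 each), a difference of 0.70 (standard error 0.50), or 1.62-fold, within the spread between replicates. Without anti-miR-503 replicate 1 the difference was 1.28 (standard error 0.35), and without anti-miR-503 replicate 2 it was 0.32.

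PPARD is the more widely expressed receptor, linked to fatty acid oxidation. It had 8.62, 9.23 and 9.52 on the anti-miR-503 arrays, against 8.22, 8.98 and 9.22 on the control arrays. In both groups replicate 1 was the lowest and replicate 3 the highest array, and the groups overlapped. The means were 9.13 ± 0.46 with anti-miR-503 and 8.81 ± 0.52 in controls (SD, n = 3 each), with a difference of 0.32 (standard error 0.34). Leaving out control replicate 1 brought the difference of PPARD to 0.02, and leaving out anti-miR-503 replicate 1 brought it to 0.57.

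Of the carriers, FABP4 had the widest spread. Its log2 signals were 5.75, 8.95 and 7.61 on anti-miR-503 replicates 1, 2 and 3, against 4.28, 6.91 and 4.52 on control replicates 1, 2 and 3. Anti-miR-503 replicates 2 and 3 were the highest of the 6 arrays, but anti-miR-503 replicate 1 lay below control replicate 2, so the groups overlapped. FABP4 averaged 7.44 ± 1.61 with anti-miR-503 and 5.24 ± 1.45 in controls (SD, n = 3 each), a difference of measured signals of 2.20 (standard error 0.88). The gene table of the study lists FABP4 with the opposite sign to the one that the array labels give. Since FABP4 was below background on every control array, the difference is not given as a fold, and over all arrays the mean of the anti-miR-503 group did not exceed the background of the controls.

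The value for FABP4 moved with single arrays. Without anti-miR-503 replicate 1 the difference was 3.04 (standard error 0.76). The mean of FABP4 on the remaining anti-miR-503 arrays was then at least 1.30-fold higher, counting each control at the lowest signal above background on its array. This bound rests on anti-miR-503 replicate 2, at 8.95. Anti-miR-503 replicate 3, at 7.61, lay below the background of every control array (7.83, 8.09 and 7.77). When control replicate 2, the highest control, was left out, the difference was 3.03. The values were 1.44 and 2.11 when anti-miR-503 replicate 2 or 3 was left out, and 1.72 and 1.84 when control replicate 1 or 3 was. The direction stayed the same in all 6 cases, but the 2-fold threshold was passed in only 2, with anti-miR-503 replicate 1 or control replicate 2 left out. With the 99th percentile of the negative controls as background, FABP4 was above it on 0 arrays.

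FABP5, the epidermal carrier, which many tumour cells also express, had 10.48, 11.59 and 11.49 on the anti-miR-503 arrays, against 11.07, 10.86 and 11.00 on the control arrays. The controls lay close together, anti-miR-503 replicates 2 and 3 lay above all of them and anti-miR-503 replicate 1 below all of them. FABP5 averaged 11.18 ± 0.62 with anti-miR-503 and 10.98 ± 0.11 in controls (SD, n = 3 each), a difference of 0.21 (standard error 0.32). Without anti-miR-503 replicate 1 it was 0.56 (standard error 0.24), and without anti-miR-503 replicate 2 it was 0.01. RefSeq annotates 15 pseudogenes of FABP5, so the probes of this row may read more than 1 locus. FABP3, the heart and muscle carrier, lay between 4.07 and 4.19 on the anti-miR-503 arrays and between 3.90 and 4.22 on the control arrays, below background on all 6, and differed by 0.12, or by 0.09 without anti-miR-503 replicate 1.

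The genes of uptake and storage were not measured above background. CD36 had 5.16, 4.44 and 5.10 on the anti-miR-503 arrays, against 5.57, 5.04 and 5.39 on the control arrays. PLIN2 lay between 4.39 and 5.79 with anti-miR-503 and between 4.09 and 5.30 in controls, and LPL between 4.31 and 4.98 with anti-miR-503 and between 4.98 and 5.04 in controls. LPL was the 1 gene of the 9 whose groups did not overlap, with all anti-miR-503 arrays below all controls, but anti-miR-503 replicate 3 and control replicate 3 differed by less than the second decimal. Of all rows tested, 5.92% had every anti-miR-503 array above every control and 4.6% every one below. The differences were -0.43 for CD36, 0.46 for PLIN2 and -0.30 for LPL, and without anti-miR-503 replicate 1 they were -0.56, 0.35 and -0.11. No fold is given for CD36, PLIN2, LPL or FABP3, since both groups lay at signals that the negative controls also reached.

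CPT1A, the liver-type carnitine palmitoyltransferase of the outer mitochondrial membrane, had 10.49, 10.28 and 9.996 on the anti-miR-503 arrays, against 9.43, 10.59 and 10.78 on the control arrays. The control group held both the lowest and the highest array. CPT1A averaged 10.25 ± 0.25 with anti-miR-503 and 10.27 ± 0.73 in controls (SD, n = 3 each), and the difference of -0.01 (standard error 0.36) had no stable sign. It was -0.13 with anti-miR-503 replicate 1 left out, -0.43 with control replicate 1 left out and 0.24 with control replicate 3 left out.

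**Figure D2:**
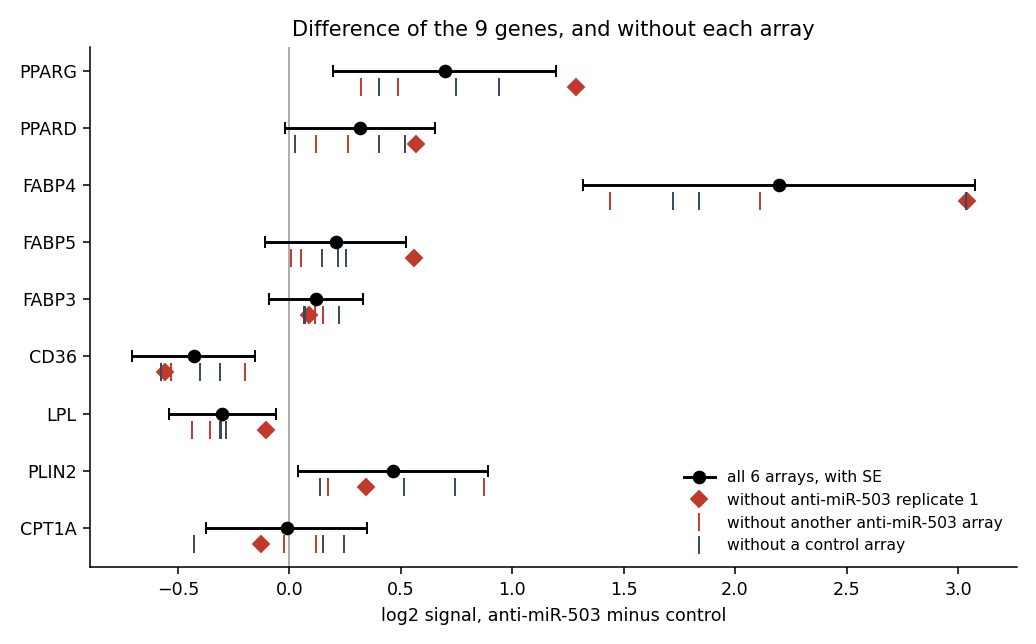
Difference in log2 signal (anti-miR-503 minus control) of the 9 genes, with dots and standard errors for all 6 arrays and marks below them for the difference without each array in turn. FABP4 stands at 2.20 with marks from 1.44 to 3.04, the diamond without anti-miR-503 replicate 1 lies at 1.28 for PPARG and 0.56 for FABP5, and the marks of CPT1A lie on both sides of 0.

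The 9 genes were then followed from array to array, as a description over 6 arrays that share the 2 conditions and the same normalization. FABP4 and PPARG had the same high arrays, anti-miR-503 replicates 2 and 3 and then control replicate 2. Their Pearson r was 0.876 and their Spearman rho 0.829. In the ranking of 4444 genes by r with FABP4 given below, PPARG stood only at rank 209. FABP5 had an r of 0.597 with FABP4 and of 0.832 with PPARG, and PPARD an r of 0.624 with FABP4. CPT1A had an r of 0.120 with FABP4, PLIN2 of 0.561, FABP3 of -0.004 and LPL of -0.009. The value largest in size was negative, that of CD36, with an r of -0.932 and a rho of -0.943. PLIN2, FABP3, LPL and CD36 were below background on all 6 arrays. Since FABP4 was above background on only 2 of the 6 arrays, its order among the other 4 is uncertain and these values carry no more than a description.

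Likeness to FABP4 was ranked over 4444 named genes that exceeded background on at least 1 array and ranged over at least 1 on the log2 scale, with the same limit on the FABP4 values. The 5 genes at the top were SLC25A30, a mitochondrial carrier (r = 0.998), the small GTPase RALB (r = 0.991), the tetraspanin TSPAN2 (r = 0.9898), the endoplasmic reticulum cochaperone DNAJC3 (r = 0.988) and GPAT3 (r = 0.986). GPAT3 makes lysophosphatidic acid, the entry step of triglyceride synthesis. It had 8.07, 9.47 and 8.74 on the anti-miR-503 arrays, against 7.31, 8.56 and 7.07 on the control arrays, with control replicate 2 again the highest control. GPAT3 and TSPAN2 were themselves below background on control replicates 1 and 3. Among the anti-miR-503 arrays replicate 2 was the highest and replicate 1 the lowest for GPAT3, as for FABP4. The 5 genes were picked for their likeness to FABP4, so a shared order of arrays is not a further result.

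**Figure D3:**
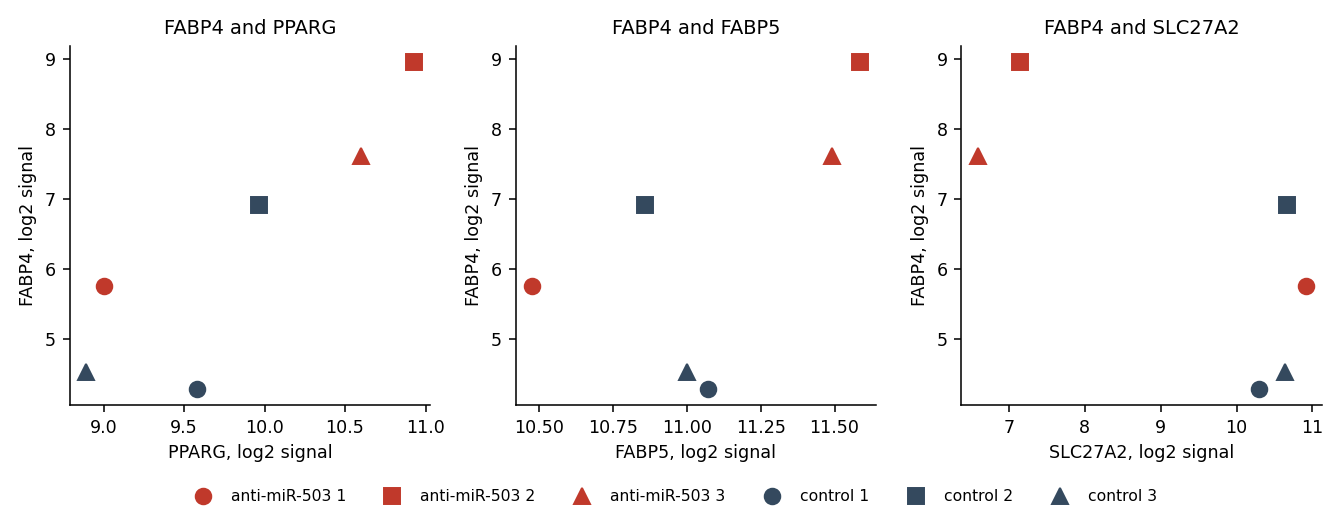
Log2 signal of FABP4 (y axis) against that of PPARG, FABP5 and the transporter SLC27A2 (x axes), 1 point per array, red for anti-miR-503 and dark for control, with the replicate number as symbol. Anti-miR-503 replicates 2 and 3 lie apart at high PPARG and FABP5 and low SLC27A2. Anti-miR-503 replicate 1 lies within the control range of FABP4 and PPARG, below it for FABP5 and above it for SLC27A2.

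Most family genes beside FABP4 were below background, so those genes could not show whether they shared its range. In the RefSeq order (GRCh38.p14) FABP4 lies in a cluster with FABP5, PMP2, FABP9 and FABP12, all genes of the same family. PMP2, the carrier of peripheral myelin, differed by 0.10, FABP9 by 0.57 and FABP12 by 0.12 (0.21, 0.57 and 0.27 with anti-miR-503 replicate 1 left out), and all 3 were below background on all 6 arrays. Only FABP4 and FABP5 of the cluster exceeded background on any array.

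The surrounding pathway was read from 7 further lists with 122 genes, of which 101 were matched to a row. Of these, 39 were above background on all arrays, 9 on some and 53 on none. None was higher and 2 were lower past the 2-fold threshold, SLC27A2 and CPT2, beside 0.872% of all rows as higher and 0.914% as lower. None passed the adjusted threshold and 7 of the 101 had an unadjusted p of 0.05 or less, beside 1377 of 21448 rows. The median difference was 0.03 (0.01 with anti-miR-503 replicate 1 left out), with 52 positive and 49 negative values, and the groups did not overlap for 5 genes as higher and 2 as lower, beside 5.92% and 4.6% of all rows. The medians of the 7 lists lay between -0.08 and 0.25, and between -0.14 and 0.22 with that array left out. Without anti-miR-503 replicate 1, 3 genes were past the 2-fold threshold as higher (NRIP1, ANGPTL4 and PDK4) and 5 as lower (SLC27A2, SLC27A4, CREBBP, BSCL2 and CPT2), beside 2.42% and 3.81% of all rows. ANGPTL4 and PDK4 were above background on no array, so their calls rest on signals at the level of the negative controls. Among the genes called without anti-miR-503 replicate 1, 2 passed the adjusted threshold of limma, NRIP1 and SLC27A2, as did 154 rows in all. That array was picked for its likeness to the controls in these data. The adjusted p-values of that fit are therefore not valid error rates. Leaving out any other array gave 0 adjusted rows.

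Partners and cofactors of the PPARs showed 0 of 10 measured genes past the threshold, with a median difference of -0.05. NRIP1, a corepressor of nuclear receptors in lipid metabolism, had 11.43, 12.84 and 13.05 on the anti-miR-503 arrays, against 11.26, 11.48 and 11.63 on the control arrays. Anti-miR-503 replicates 2 and 3 lay above every control and replicate 1 among the controls, the same arrangement as in PPARG. The difference of NRIP1 was 0.98 (standard error 0.41, adjusted p = 0.756 by limma), and without anti-miR-503 replicate 1 it was 1.48 (standard error 0.25, adjusted p = 0.0477 by limma). With each array left out in turn, its adjusted p by limma lay between 0.0477 and 0.998. The coactivator NCOA2 differed by -0.53 (standard error 0.32), or by -0.76 with anti-miR-503 replicate 1 left out. RXRA was not matched to a row and is not analysed here.

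Other PPAR target genes had a median difference of 0.25 over 13 measured genes, of which 1 was above background, and 0 passed the threshold. ANGPTL4, an inhibitor of lipoprotein lipase, had 4.26, 5.00 and 5.34 on the anti-miR-503 arrays, against 3.54, 4.36 and 4.14 on the control arrays. PDK4, which restrains the use of glucose, lay between 4.28 and 7.13 with anti-miR-503 and between 3.69 and 5.46 in controls. Both were below background on all 6 arrays, as was NR1H3, the oxysterol receptor LXR alpha, so no fold is given. The differences were 0.86 for ANGPTL4, 1.22 for PDK4 and 0.65 for NR1H3, and 1.16, 2.00 and 0.65 with anti-miR-503 replicate 1 left out. TXNIP, the 1 gene of the list above background and chosen after its values were seen, had 13.28, 13.32 and 12.87 on the anti-miR-503 arrays, against 9.31, 12.07 and 12.85 on the control arrays. Its difference of 1.74 (standard error 0.77) did not pass the threshold, and it was 1.68 with anti-miR-503 replicate 1 left out. With control replicate 1 left out it was 0.69, whereas it passed the 2-fold threshold with control replicate 2 left out (2.07) or control replicate 3 (2.46).

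Further lipid carriers showed 0 of 11 genes past the threshold and a median difference of 0.10. Only 2 of the 11 were above background. One of them, ACBD3, a Golgi protein with an acyl-CoA binding domain, differed by 0.54 (standard error 0.30), or by 0.82 with anti-miR-503 replicate 1 left out.

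In the list of lipid uptake and extracellular lipolysis, 1 of 16 genes passed as lower, with a median of -0.05 over the list. This was SLC27A2 (FATP2), a transporter and acyl-CoA synthetase for very long-chain fatty acids. It had 10.91, 7.14 and 6.59 on anti-miR-503 replicates 1, 2 and 3, against 10.30, 10.67 and 10.64 on control replicates 1, 2 and 3. Anti-miR-503 replicates 2 and 3 were below background, anti-miR-503 replicate 1 was the highest of the 6 arrays and the controls lay close together, so the groups overlapped. SLC27A2 averaged 8.21 ± 2.35 with anti-miR-503 and 10.53 ± 0.20 in controls (SD, n = 3 each), a difference of -2.32 (standard error 0.95, adjusted p = 0.756 by limma). Without anti-miR-503 replicate 1 the difference was -3.67 (standard error 0.28, adjusted p = 0.00459 by limma), and SLC27A2 was then at least 8.24-fold lower in anti-miR-503. Of the 6 arrays left out in turn, this was the only one whose omission kept the 2-fold call. The adjusted p by limma lay between 0.00459 and 0.998 over these 6 fits, and the difference was -1.51 without anti-miR-503 replicate 3.

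Activation and mitochondrial oxidation of fatty acids had 1 of 21 genes past the threshold, as lower, and a median of -0.02. CPT2, which acts after CPT1A on the inner mitochondrial membrane, had 9.25, 8.72 and 8.43 on the anti-miR-503 arrays, against 10.15, 10.06 and 9.24 on the control arrays. All 6 values were above background, and the groups overlapped narrowly, with anti-miR-503 replicate 1 just above control replicate 3. CPT2 averaged 8.80 ± 0.42 with anti-miR-503 and 9.82 ± 0.50 in controls (SD, n = 3 each), a difference of -1.02 (standard error 0.32, adjusted p = 0.756 by limma). The call was kept when anti-miR-503 replicate 1 was left out, with -1.24, or control replicate 3, with -1.30, and was lost in the other 4 cases, where the difference was as small as -0.83.

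Lipid droplet genes had 0 of 20 past the threshold and a median of 0.05. BSCL2 (seipin), which shapes lipid droplets at the endoplasmic reticulum, had 10.33, 9.63 and 9.61 on the anti-miR-503 arrays, against 10.91, 11.11 and 9.98 on the control arrays, and differed by -0.81 (standard error 0.35), or by -1.05 with anti-miR-503 replicate 1 left out, when it passed the threshold. CIDEB, a lipid droplet protein of liver, differed by -0.54 (standard error 0.26), or by -0.64 with the same array left out, and was below background on all arrays. In peroxisomal oxidation 0 of 10 genes passed and the median was -0.08. The thiolase ACAA1 differed by -0.57 (standard error 0.26) and the peroxisomal fatty acid transporter ABCD3 by -0.58 (standard error 0.32), both above background on all arrays, and with anti-miR-503 replicate 1 left out by -0.69 and -0.80.

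**Figure D4:**
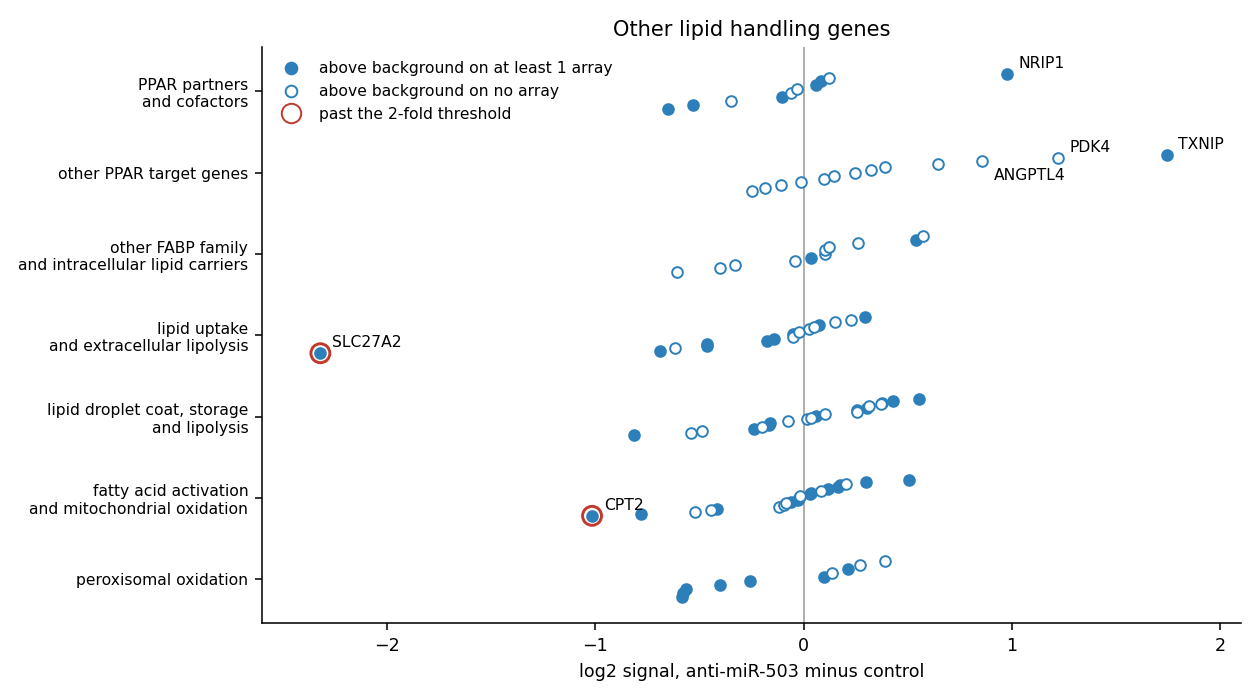
Difference in log2 signal (anti-miR-503 minus control) of each of the 101 further lipid handling genes in 7 lists, filled where the gene was above background on at least 1 array, with red rings past the 2-fold threshold. SLC27A2 at -2.32 and CPT2 at -1.02 carry the only rings, and PDK4 and ANGPTL4 are open circles.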

How the data were processed

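RNA of 3 anti-miR-503 and 3 control cultures was measured on 1-colour Clariom S arrays. The authors made the deposited log2 signals with Transcriptome Analysis Console by RMA (background correction, quantile normalization between arrays, probe summarization). The sources used here name neither the RMA variant nor the annotation build. These log2 values were used as deposited. Of 24351 rows, 2903 array controls were left out. The platform annotation gave 1 gene symbol each to 17709 rows, and 20 symbols had several rows, of which the one with the highest mean was used.

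Groups were compared over all 21448 rows by lmFit and eBayes (limma 3.58.1, R 4.3.3) with Benjamini-Hochberg adjustment. The groups came from the labels. The 9 genes, the lists and the tests were chosen with earlier results of these data known. Besides the 9 genes, up to 4 genes per list past the 2-fold threshold were named, or the 2 with the smallest p where none passed, and the 5 genes most like FABP4. TXNIP, PDK4, SLC27A4 and CREBBP and the FABP4 neighbours PMP2 and FABP12 were named outside this rule, after their values had been seen. Alternatives were leaving out each array, the replicate number as a block, a second quantile normalization, median centring, array weights, a variance trend with robust estimation, the methods' t-test, a filter on low rows, 1 row per gene and other thresholds. The fit was tested on simulated data with independent noise in each row. No simulated array departed from its group, so that test did not cover the position of anti-miR-503 replicate 1. Arrays have no read depth, and 3 arrays per group limit the precision. Figures were drawn with matplotlib 3.10.9.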

Additional observations from a re-analysis of the deposited data

How the results depend on the processing

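The difference of FABP4 stayed positive under all 12 alternatives, between 1.44 and 3.09, and leaving out each array gave 1.44 to 3.04. The signs of the other genes of the 9 also held under their 12 alternatives, except that of CPT1A, which turned in 5. The smallest values were 0.006 for FABP5 and 0.02 for PPARD, within the standard errors of those fits (0.34 and 0.32). A sign that held at such values, or for genes below background on all arrays, carries little weight. Among these alternatives, the replicate block and the mean over all rows of a symbol could not change any difference. The groups are balanced over the replicate numbers, and each gene had 1 row. Those settings therefore say nothing about the signs. With the 99th percentile of the negative controls as background, 3 of the 9 genes (FABP5, PPARG and CPT1A) exceeded it on at least 1 array in place of 5, and FABP4 exceeded it on 0 arrays.

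Of the 101 other lipid genes, 0 were higher and 2 lower past the 2-fold threshold. The higher count was 2 with median centring, 2 with array weights, 3 at 1.5-fold, and 0 to 3 when an array was left out. The lower count was 1 with a second quantile normalization, with median centring and with the variance trend. It was 0 with an unpaired t-test, 4 at 1.5-fold, and 0 to 5 when an array was left out. Over all rows 187 were higher and 196 lower. These counts were 342 and 411 with array weights, 38 and 55 with an unpaired t-test, and 613 and 617 at 1.5-fold. Among rows at or above the median level they were 118 and 123. They ranged over 81 to 519 and 82 to 818 when an array was left out. Adjusted calls were 0, and 0 to 154 when an array was left out, with 154 without anti-miR-503 replicate 1. The cause was not tested.

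The deviations of same-numbered arrays from their group means correlated at -0.10, 0.21 and 2.94e-05. For differently numbered arrays the values lay between -0.334 and 0.245. Deviations from a mean of 3 arrays are tied to one another, so these values cannot show whether same-numbered cultures were paired. With the replicate number as a block, 2 other lipid genes were higher and 2 lower, 197 rows were higher and 228 lower, and 0 passed the adjusted threshold.

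All 6 arrays come from 1 cell line, 4 of the 9 genes lay below background throughout, and FABP4 did so in all controls. The 4 therefore have no fold here. FABP4 has only a lower bound, without anti-miR-503 replicate 1, and that bound rests on anti-miR-503 replicate 2.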
